A study of Bos taurus with 6 samples.

Results

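The 8 genes of cell adhesion described here were measured in bovine fetal fibroblasts (bEFs): the cadherin genes CDH2, CDH4, CDH6, CDH11 and CDH13 and the immunoglobulin superfamily genes NCAM1, ALCAM and ICAM1. They were taken by symbol from the deposited table, and the 8 symbols matched 8 of its 17663 genes. The bEFs were primary connective tissue cells cultured from cattle fetuses of 50–60 days, from the trunk tissue that remained without head, limbs, bones or viscera. FT cells came from 3 fetuses with the exogenous fat-1 gene of Caenorhabditis elegans, whose enzyme turns n-6 into n-3 polyunsaturated fatty acids. The WT group was made up of 3 Luxi cattle fetuses without it. With 1 poly(A) RNA library from each fetus (named FT_1, FT_2, FT_3, WT_1, WT_2 and WT_3), n = 3 in both groups. The promoter of the transgene, the number of founders, the breed and sex of the FT fetuses and the passage of the cells are not given in the sources used here. FT and WT cells may therefore differ in more than the transgene, and such differences cannot be told apart from it.

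Cadherins are membrane proteins that bind cadherins of neighbouring cells when calcium is present. Classical cadherins such as CDH2 (N-cadherin), CDH4 (R-cadherin), CDH6 (K-cadherin) and CDH11 (OB-cadherin) hold the actin skeleton through catenins, whereas CDH13 (T-cadherin) has no cytoplasmic tail and sits in the membrane by a lipid anchor. NCAM1 and ALCAM bind partners of their own kind on other cells, and ICAM1 is a ligand of leukocyte integrins that inflammatory signals induce through NF-kappaB. CDH2 and CDH11 are widely used as cadherins of mesenchymal cells.

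Read counts summed to 63366834, 48167642 and 54204446 in the FT libraries, in the order of their numbers, and to 69777641, 51310741 and 54271927 in the WT libraries. FT_1 stood apart from the other FT libraries before any of the 8 genes was considered. Of the 13482 genes that passed the filter on low counts, 10.4% lay at least 4-fold above or below the mean of the other 2 libraries of the group in FT_1, against 1.07% to 1.32% in the WT libraries. The values of 4.27% in FT_2 and 4.49% in FT_3 were measured against a mean that held FT_1. The fold changes of the 8 genes, their ratios and the counts of each gene list are therefore given with and without FT_1. Each gene named below as having risen or fallen with all 6 libraries kept that call without FT_1.

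Markers of fibroblasts were abundant in all 6 libraries. The summed FPKM (fragment counts divided by gene length and by library size) of 12 fibroblast genes was 7175, 17260 and 17000 in the FT libraries (FT_1 lowest), and 17970, 17410 and 17500 in WT_1, WT_2 and WT_3. The intermediate filament gene VIM, the most abundant of them in WT cells, had an FPKM of 1244, 3850 and 4171 in the FT libraries and 7312 to 8178 in the WT libraries. The list did not move as one: lumican (LUM) was at 551, 2759 and 2559 in the FT libraries and 1117 to 1224 in the WT libraries, and of the 12 genes 2 rose and 0 fell, while without FT_1 6 rose and 1, VIM, fell. Markers of epithelium were by far highest in 1 library: the summed FPKM of 9 genes was 457 in FT_1, 16.2 in FT_2, 15.8 in FT_3 and 8.05 to 14.2 in the WT libraries. The keratin gene KRT5 led them with 172 in FT_1 against 2.57 and 1.63 in FT_2 and FT_3, and 5 of the 9 genes, KRT5 and KRT14 among them, were at 0 in all WT libraries. FT_1 held the highest value for 8 of the 9. The claudin gene CLDN4 was raised in all FT libraries, at 3.65, 3.39 and 3.82 against 0.09 to 0.33 in WT cells. Of the 7 tested genes 1 rose and 0 fell. Without FT_1 5 rose (CLDN4, KRT5, KRT8, KRT14 and KRT18) and 0 fell, in a fit where 30.6% of all tested genes rose. KRT5, KRT8, KRT14 and KRT18 were at 0 in all WT libraries and passed the filter only through FT libraries, so nothing is concluded from their calls. CDH1 (-0.28, adjusted p = 0.254) and ESRP1 (-1.72, adjusted p = 0.231) were lower in that fit but did not pass the edgeR test. KRT19 stands on both this list and the mesothelial one. In bulk RNA of this kind, fewer cells of a type and less RNA per cell cannot be told apart.

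Other lineages were checked with 7 further lists. Here and below, the leading or most abundant gene of a list is the one with the highest mean FPKM over the 6 libraries, which need not lead in each library. Summed endothelial markers (7 genes in the table, led by PECAM1, all below 1 in each library) reached 0.47 to 1.08 in FT and 1.0 to 1.56 in WT cells. Skeletal muscle markers (5 genes, led by DES) summed to 3.84 to 5.81 in FT and 1.22 to 2.05 in WT cells, with DES itself at 0 in WT_2 and WT_3. DES alone carried the higher sum: MYF5 was at 0.03, 0.59 and 0.61 in the FT libraries and 1.06 to 1.93 in WT cells, and of the 3 tested genes 1 rose (DES) and 1 fell (MYH3, a call lost without FT_3, WT_1, WT_2 or WT_3), and 1 and 2 without FT_1. Blood and immune markers (7 genes, led by LAPTM5) gave 5.11 to 10.4 against 23.0 to 24.5. These are low levels beside the fibroblast genes. Schwann and neural markers (4 genes, led by S100B) gave 15.1, 7.10 and 5.85 in FT_1, FT_2 and FT_3 and 11.9 to 13.2 in WT cells, and cartilage and bone markers (6 genes, led by RUNX2) gave 18.4, 9.50 and 10.1 against 6.12 to 6.82. RUNX2 rose, but ACAN on the same list was at 0.03, 0.14 and 0.19 in the FT libraries and 0.56 to 0.71 in WT cells, a fall (adjusted p = 0.0395) that was lost without FT_2, WT_1, WT_2 or WT_3. The sum of mesothelial markers (5 genes) was almost that of MSLN alone, whose FPKM was 199, 44.9 and 46.2 in the FT libraries and 2.08 to 3.18 in WT cells, for sums of 208, 45.1, 46.3 and 2.37 to 3.51. UPK3B and BNC1 were highest in FT_1 (1.03 and 1.52) but lower in FT_2 and FT_3 than in any WT library. Pericyte and smooth muscle markers (7 genes, led by the actin gene ACTA2) summed to 2276, 3495 and 3365 in the FT libraries and 1080 to 1204 in the WT libraries, with 4 rises and 1 fall (CSPG4), and 6 and 1 without FT_1. The other lists gave, without FT_1 in brackets, 0 rises and 0 falls (0 and 1) for endothelium, 0 and 1 (0 and 3) for blood, 0 and 1 (0 and 2) for Schwann cells, 1 and 1 (2 and 1) for cartilage and bone and 1 and 0 (1 and 0) for mesothelium. The fall of the blood list was lost without FT_2 or any WT library, and that of the Schwann list without any library but FT_1. Summed levels of several lists thus differed between the groups or stood apart in FT_1, while members of some lists went both ways. Of all tested genes 39.0% were called in either direction, and 62.1% without FT_1. Beside these shares, and with so few tested genes in each, the counts of calls are not read as a change of a list. The part of these markers in the results for the 8 adhesion genes was not tested.

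FT and WT cells were compared with edgeR's quasi-likelihood test on the raw counts, and a gene is said to have risen or fallen where the Benjamini-Hochberg adjusted p over all tested genes was under 0.05. All 8 genes passed the filter on low counts. CDH13 and ALCAM rose and CDH2 and CDH6 fell, while CDH4, CDH11, NCAM1 and ICAM1 did not pass the test. Among all 13482 tested genes 20.1% rose (2714) and 18.9% fell (2547), so 2 rises and 2 falls among 8 genes lay near the background. Without FT_1, 3 of the 8 rose and 3 fell, because CDH11 and CDH4 joined them, and in that fit 30.6% of 13765 genes rose and 31.5% fell. At the study's threshold, an unadjusted p under 0.05 with an absolute log2 fold change over 1, the numbers were 2 up (CDH13 and ALCAM, the latter with 1.0) and 2 down (CDH4 and CDH6), against 10.2% and 8.96% of all tested genes. In FPKM the FT and WT libraries did not overlap for 6 of the 8 genes, against 58.7% of the tested genes. With 1 other library left out, the number that rose was 1 without WT_1 or WT_2, and the number that fell was 0 without FT_2, WT_1 or WT_2 and 1 without WT_3. The shares over all genes dropped as well: 11% and 11.6% rose without WT_1 and WT_2, and 14.2%, 11.1%, 11.3% and 12.6% fell without FT_2, WT_1, WT_2 and WT_3. In edgeR at an unadjusted p under 0.05, 2, 2 and 3 of the 8 genes were lower in the 3 fits with no fall, against 20.8%, 18.6% and 18.9% of all genes.

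**Figure D1:**
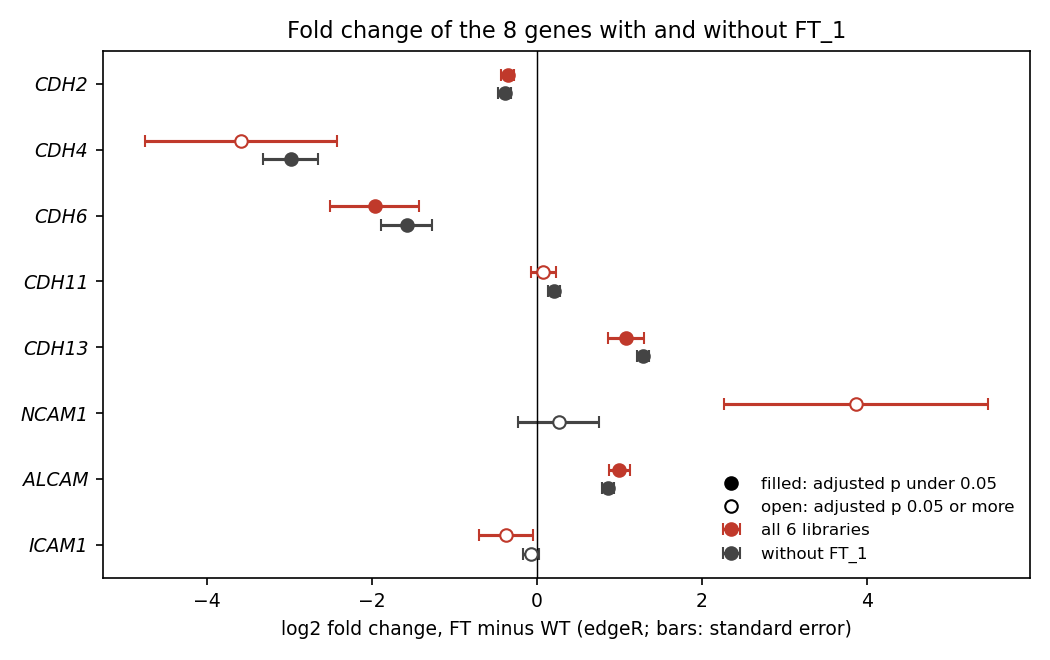
Log2 fold change (FT minus WT) of the 8 genes on the x axis, from edgeR, with all 6 libraries (red) and without FT_1 (grey). Bars are standard errors and filled points have an adjusted p under 0.05. The NCAM1 value moves from 3.87 to 0.26 when FT_1 is left out, while CDH13, ALCAM, CDH2 and CDH6 stay on their side of 0.

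The levels of the 8 genes differed widely. In WT cells the order by mean FPKM was CDH11, CDH13, ICAM1, ALCAM, CDH2, CDH6, CDH4 and NCAM1, and no neighbours in that order overlapped between libraries. In FT cells the order was CDH13, CDH11, ALCAM, ICAM1, CDH2, NCAM1, CDH6 and CDH4, where CDH13 overlapped with CDH11, CDH2 with NCAM1 and NCAM1 with CDH6. The place of NCAM1 rests on FT_1, for its mean over FT_2 and FT_3 (0.255) lay below that of CDH6 (0.385). Thus CDH13 and CDH11, and likewise ALCAM and ICAM1, stood in opposite order in the groups. Some of the 8 were hardly read in these fibroblasts, for CDH4 lay below 1 FPKM in all 6 libraries, NCAM1 in 5 and CDH6 in the 3 FT libraries.

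**Figure D2:**
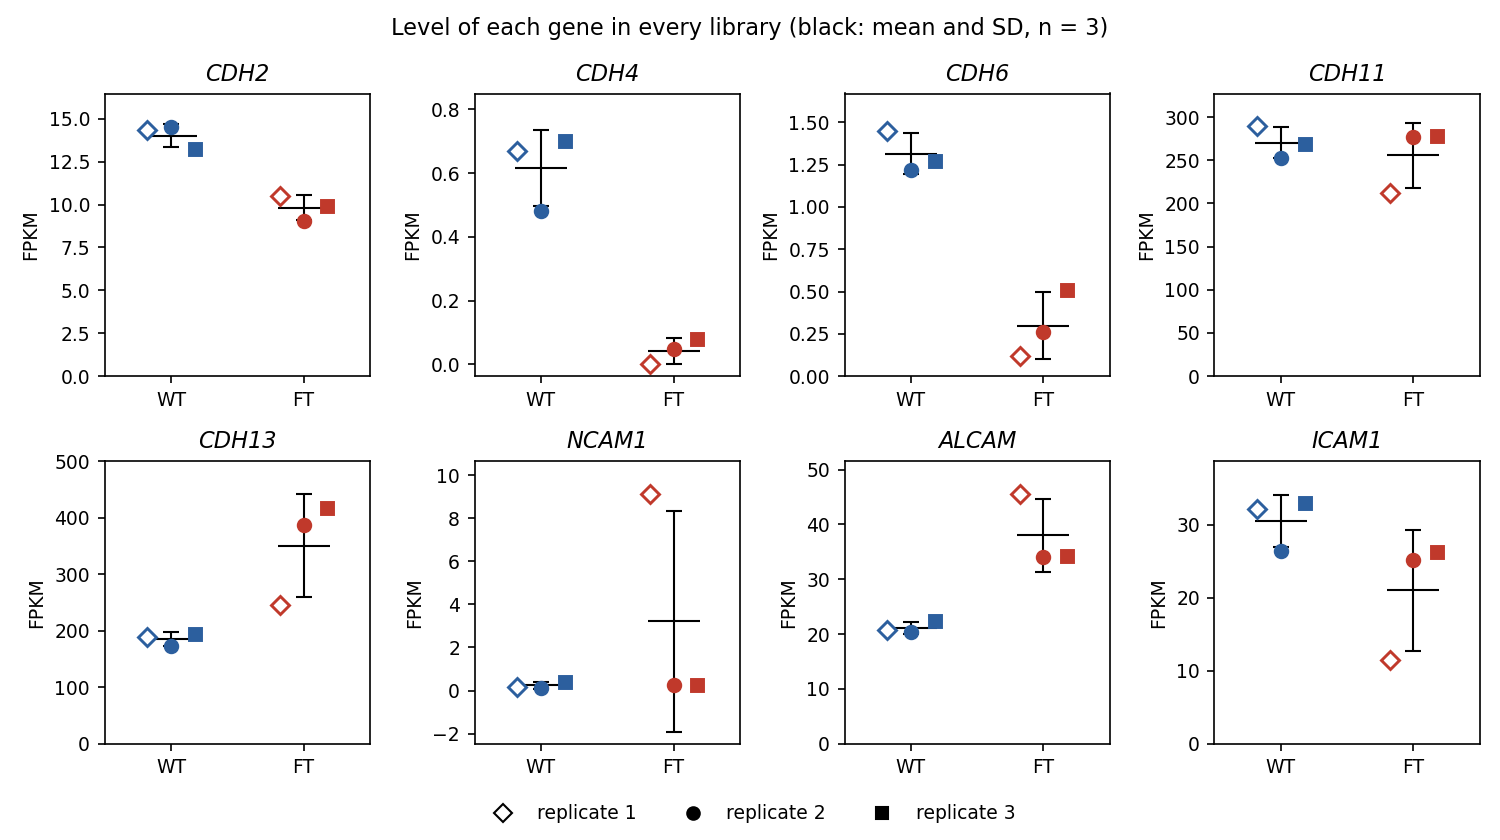
FPKM of the 8 genes (y axis, each panel with its own scale) in the WT and FT libraries, with the mean and SD of 3 libraries in black. Open diamonds mark replicate 1. CDH13 and ALCAM lie higher and CDH2, CDH4, CDH6 and, narrowly, ICAM1 lower in each FT library than in any WT library. The FT mean of NCAM1 rests on FT_1 with 9.13.

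CDH13 was the most abundant of the 8 genes in FT cells. The gene (ENSBTAG00000034373, chromosome 18, 9350020 to 10154230, plus strand, in the coordinates of the table, whose cattle genome build is not given in the sources used here) reached 246, 387 and 417 FPKM in FT_1, FT_2 and FT_3, compared with 189, 172 and 195 in WT_1, WT_2 and WT_3. All FT libraries lay above all WT libraries, and FT_1 was the lowest of the 3. By mean FPKM it ranked 165th of 17663 genes in FT cells (350.0 ± 91.2, SD, n = 3) and 361st in WT cells (185 ± 11.8). CDH13 rose by 1.08 on the log2 scale (SE, the standard error, 0.22, adjusted p = 0.0123), and 1.29 without FT_1 (SE 0.07, adjusted p = 4.92e-07). The rise missed the threshold when WT_1 (1.09, adjusted p = 0.0551) or WT_2 (1.02, adjusted p = 0.0605) was left out, with nearly the same fold change.

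CDH11, the classical cadherin with the highest level, had nearly equal levels in both groups. The gene (ENSBTAG00000032092, chromosome 18, 32682891 to 32837077, minus strand) had an FPKM of 212, 277 and 277 in FT_1, FT_2 and FT_3 and of 289, 253 and 269 in WT_1, WT_2 and WT_3. FT_2 and FT_3 lay within the range of the WT libraries and FT_1 below it, but in CPM (counts scaled to the library total) adjusted by TMM FT_2 and FT_3, at 1168 and 1183, lay above the WT libraries (951 to 1086). The log2 fold change was 0.08 (SE 0.15, adjusted p = 0.698). Its sign depended on the scaling of the libraries: it was -0.07 with library totals alone and -0.09 with limma on log2(FPKM + 1). Taken over all genes in the fit, the median also moved, from 0.03 with TMM to -0.12 with library totals alone, and relative to these medians CDH11 was at 0.05 and 0.04. Without FT_1, its lowest library, CDH11 rose by 0.21 (SE 0.07, adjusted p = 0.0247).

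CDH2 was a minor cadherin in these cells. The gene (ENSBTAG00000021190, chromosome 24, 28655047 to 28904115, plus strand) had an FPKM of 10.5, 9.06 and 9.93 in FT_1, FT_2 and FT_3, and of 14.3, 14.5 and 13.3 in WT_1, WT_2 and WT_3. The groups did not overlap, and FT_1 lay with the other FT libraries. CDH2 fell, with a log2 fold change of -0.35 (SE 0.08, adjusted p = 0.0186), or -0.39 without FT_1 (adjusted p = 0.00156). This small fall missed the threshold when FT_2 (-0.30, adjusted p = 0.0596), WT_1 (-0.34, adjusted p = 0.0773) or WT_2 (-0.33, adjusted p = 0.0698) was left out.

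CDH6, a cadherin known from the developing kidney and neural crest, was close to the limit of these libraries. The gene (ENSBTAG00000012992, chromosome 20, 42209780 to 42354761, minus strand) had an FPKM of 0.12, 0.26 and 0.51 in FT_1, FT_2 and FT_3 from 21, 34 and 76 counts. In WT_1, WT_2 and WT_3 it was 1.45, 1.22 and 1.27 from 274, 170 and 187 counts. Every FT library lay below every WT library. CDH6 fell, with a log2 fold change of -1.97 (SE 0.54, adjusted p = 0.0322), or -1.58 without FT_1 (SE 0.31, adjusted p = 0.0015). The call was lost without FT_2 (-1.88, adjusted p = 0.0948), WT_1 (-1.90, adjusted p = 0.102), WT_2 (-2.02, adjusted p = 0.0885) or WT_3 (-1.99, adjusted p = 0.0873).

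CDH4, best known from retina and other neural tissue, was read at even lower levels. The gene (ENSBTAG00000015058, chromosome 13, 55175303 to 55306529, minus strand) had 0, 16 and 29 counts in FT_1, FT_2 and FT_3 and 296, 155 and 239 in WT_1, WT_2 and WT_3. In FPKM this was 0, 0.05 and 0.08 against 0.67, 0.48 and 0.70. The 0 in FT_1 allows up to 0.0473 CPM (here 3 counts), a limit that covers counting error only. The groups did not overlap, yet the log2 fold change of -3.59 had a standard error of 1.16 and did not pass the test (adjusted p = 0.0529). Over the other fits the adjusted p ran from 3.56e-05 without FT_1, where the log2 fold change was -2.99 (SE 0.33), to 0.143 without WT_1.

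The cadherins were also compared as shares of the summed FPKM of the 17 CDH genes in the table, a measure within each library. CDH11 made up 40.8%, 40.3% and 38.5% in FT_1, FT_2 and FT_3 and 56.8%, 55.9% and 54.1% in WT_1, WT_2 and WT_3. CDH13 made up 47.4%, 56.2% and 57.8% in the FT libraries and 37.2%, 38.0% and 39.2% in the WT libraries. CDH11 and CDH13 together took 88.3% to 96.5%, so the remaining 15 genes were minor in all 6 libraries. The sum itself was 519, 689 and 721 FPKM in FT_1, FT_2 and FT_3 and 509, 453 and 497 in the WT libraries. CDH2 took 1.32% to 2.02% in FT and 2.67% to 3.20% in WT cells. The epithelial cadherin gene CDH1 took 7.00% in FT_1 and 1.03% to 2.79% elsewhere. Shares sum to 100% within a library, so a larger share of 1 gene lowers the others, and no test was run on them.

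**Figure D3:**
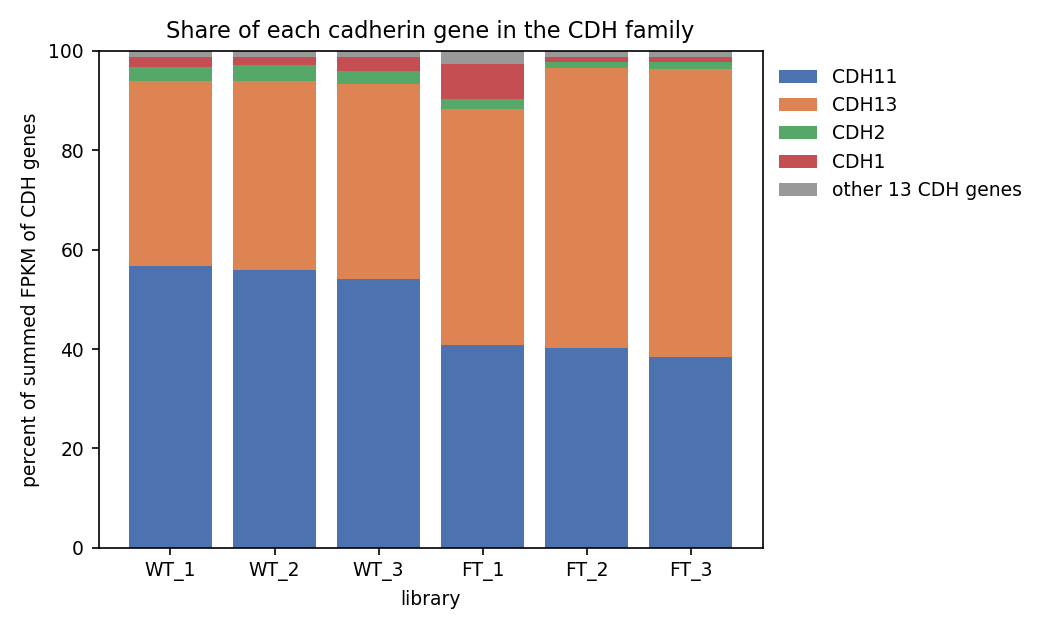
Percent of the summed FPKM of all 17 CDH genes (y axis) that each cadherin takes in each library (x axis). CDH13 is the larger of the leading pair in the 3 FT libraries and CDH11 in the 3 WT libraries, and CDH1 reaches 7.00% in FT_1.

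The ratio of CDH2 to CDH11, which does not depend on library scaling, was compared on the log2 scale. It was -4.34, -4.94 and -4.80 in FT_1, FT_2 and FT_3 (mean -4.69 ± 0.32) and -4.34, -4.13 and -4.34 in WT_1, WT_2 and WT_3 (mean -4.27 ± 0.12). FT_1 fell among the WT values. The difference of -0.42 gave p = 0.3 in a two-sided exact permutation test, whose smallest possible p with 3 against 3 libraries is 0.1. Without FT_1 the difference was -0.60 (exact permutation p = 0.2, the smallest possible with 2 against 3 libraries).

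ALCAM, also called CD166, rose in FT cells. The gene (ENSBTAG00000000088, chromosome 1, 49930775 to 50160291, plus strand) had an FPKM of 45.6, 34.1 and 34.2 in FT_1, FT_2 and FT_3, and of 20.8, 20.3 and 22.4 in WT_1, WT_2 and WT_3. The groups were well apart, and FT_1 was the highest library. The mean was 38.0 ± 6.60 in FT and 21.2 ± 1.08 in WT cells (SD, n = 3). ALCAM had a log2 fold change of 1.0 (SE 0.13, adjusted p = 0.00261), or 0.86 without FT_1 (SE 0.07, adjusted p = 4.33e-06). ALCAM was the only one of the 8 genes to pass the test in every fit in which 1 library was left out, with a log2 fold change of 0.86 to 1.07 and an adjusted p of at most 0.0204.

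ICAM1 had lower levels in FT_1 than elsewhere. The gene (ENSBTAG00000010303, chromosome 7, 14813729 to 14824411, plus strand) had an FPKM of 11.5, 25.2 and 26.3 in FT_1, FT_2 and FT_3 and of 32.1, 26.4 and 33.0 in WT_1, WT_2 and WT_3. In FPKM every FT library lay below every WT library, though FT_3 and WT_2 were almost level. In CPM scaled by TMM the groups overlapped. The log2 fold change of -0.37 had a standard error of 0.33 and did not pass the test (adjusted p = 0.398), and without FT_1 it was -0.08 (SE 0.10, adjusted p = 0.524).

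NCAM1 was nearly silent outside FT_1. The gene (ENSBTAG00000005710, chromosome 15, 23712341 to 23832796, plus strand) reached 9.13 FPKM in FT_1 (3271 counts), but 0.24 and 0.27 FPKM in FT_2 and FT_3 (67 and 82 counts). WT_1, WT_2 and WT_3 had 0.18, 0.12 and 0.42 from 73, 34 and 128 counts. FT_2 and FT_3 lay within the WT range. The log2 fold change was 3.87 (SE 1.60, adjusted p = 0.103) with all libraries and 0.26 (SE 0.49, adjusted p = 0.662) without FT_1, so the size of the difference rests on FT_1. The log2 ratio of NCAM1 to ALCAM was -2.32 in FT_1, -7.15 and -6.99 in FT_2 and FT_3, and -6.85, -7.41 and -5.74 in the WT libraries. The difference between groups was 1.18 (two-sided exact permutation p = 0.7) and turned to -0.41 without FT_1.

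High NCAM1 in FT_1 came with a set of junction genes of epithelia. Of the desmosome list 9 genes were in the table and 4 were tested. Desmoplakin (DSP), its most abundant gene, was at 26.0 FPKM in FT_1 but at 0.03 and 0.08 in FT_2 and FT_3, and at 0 to 0.03 in the WT libraries, with an adjusted p of 0.0599. All 4 tested genes were at least 4-fold higher in FT_1 than in the other FT libraries. The list had 0 rises and 0 falls in edgeR, with 1 gene higher and 0 lower at an unadjusted p under 0.05, and DESeq2 and limma called 0 as well. Desmoglein 2 (DSG2) had 15.5 FPKM in FT_1, 0.04 in FT_2 and FT_3 and 0 in the WT libraries. It was called in the fit without FT_1 (adjusted p = 0.00619), so 1 of the 4 rose there and 0 fell (1 lower at an unadjusted p under 0.05). At 0 in WT cells, DSG2 passed the filter only through FT libraries, so nothing is concluded from this call. The fits without FT_2 and with the replicate block also gave 1 rise. Whether NCAM1 in FT_1 came from the same cells as these genes was not tested.

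**Figure D4:**
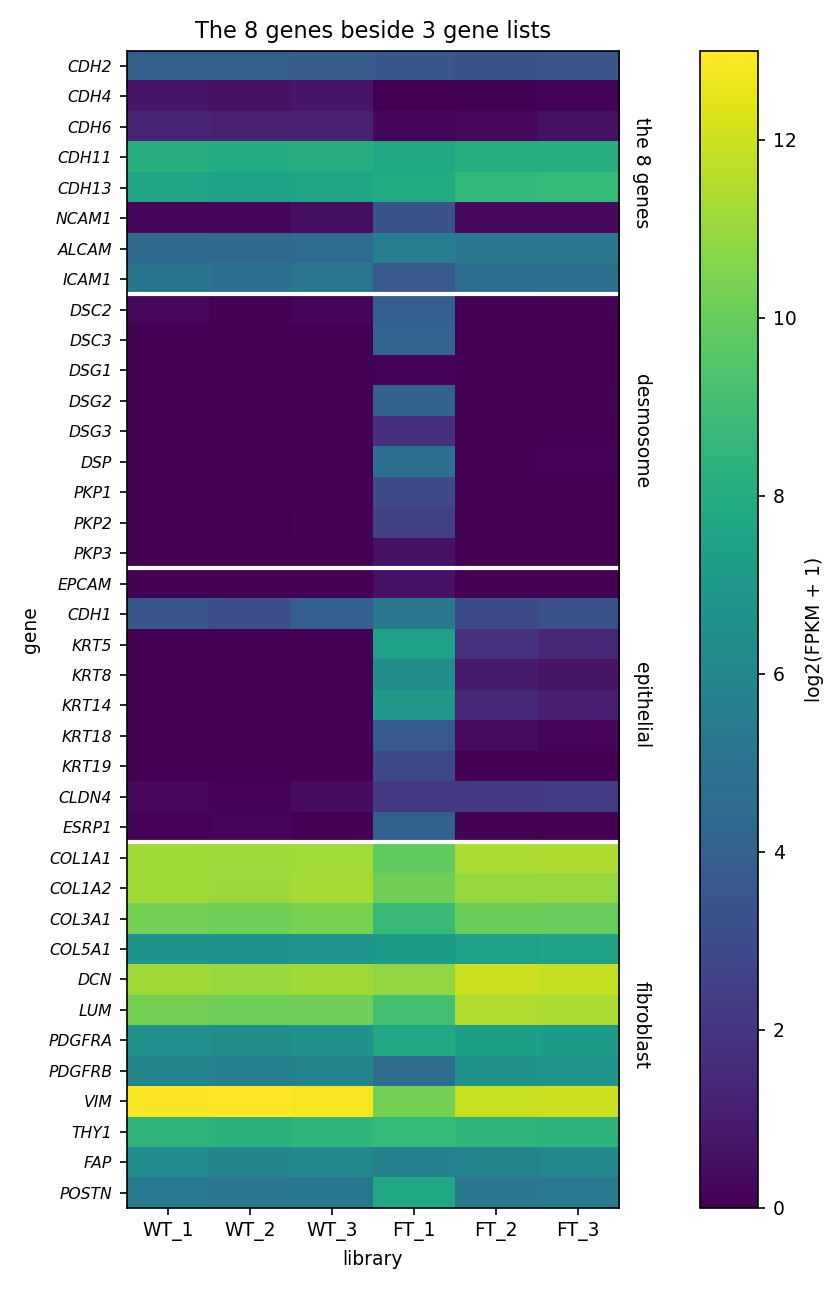
Level of the 8 genes, of the desmosome genes and of the epithelial and fibroblast markers, as log2(FPKM + 1) in colour, for each gene (y axis) in each library (x axis). FT_1 shows NCAM1, most of the desmosome genes and the keratins well above the other 5 libraries, and has the lowest VIM. KRT5 is at 172 FPKM in FT_1 against 2.57 and 1.63 in FT_2 and FT_3.

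Relatives and partners of the 8 genes were counted in lists. Calls in either direction made up 39.0% of all tested genes (62.1% without FT_1), against 42.9% (50.0%) of the other CDH genes, 16.7% (50.0%) of the protocadherins, 36.4% (54.5%) of the catenins, 40.0% (50.0%) of the nectins, 57.1% (73.3%) of the other immunoglobulin genes, 0% (25%) of the desmosome genes, 33.3% (77.8%) of the repressors and mesenchymal factors, 18.2% (58.3%) of the partners and 50.0% (83.3%) of the NF-kappaB list. With 4 to 15 tested genes in each, these shares are coarse. The tested genes include some at 0 in a whole group, from whose calls nothing is concluded. These were 1 (3 without FT_1) of the other immunoglobulin genes and 1 (1) of the desmosome genes. Without FT_1 they were also 1 of the protocadherins and 1 of the nectins. Among the other CDH genes 12 were in the table and 7 were tested, of which 3 rose and 0 fell (4 and 0 at an unadjusted p under 0.05 in edgeR; 0 falls in DESeq2 and limma also). P-cadherin (CDH3) rose by 1.06 (adjusted p = 0.00313), from 2.16 ± 0.28 to 4.05 ± 0.47 FPKM, and CDH26 by 3.32 (adjusted p = 0.00234), from 0.20 ± 0.07 to 1.82 ± 0.66. E-cadherin (CDH1), the most abundant of them, was at 36.3 FPKM in FT_1, at 7.11 and 8.41 in FT_2 and FT_3 and at 7.83 to 13.9 in WT cells, and its log2 fold change of 0.85 (adjusted p = 0.342) became -0.28 without FT_1. Without FT_1, 4 of 8 other CDH genes rose and 0 fell, also at an unadjusted p under 0.05.

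Protocadherins and atypical cadherins, larger relatives with other cytoplasmic parts, gave 2 rises and 0 falls among 12 tested genes, where 1 gene was lower at an unadjusted p under 0.05 and DESeq2 called 3 rises and 0 falls. Limma called 0 rises and 0 falls in both filtered fits and 1 and 1 without the filter. Without FT_1 the numbers were 5 and 2 of 14, and without WT_1, WT_2 or WT_3 they were 1 and 0. The calsyntenin gene CLSTN1 was the most abundant, with 52.9 ± 14.7 FPKM in FT and 45.0 ± 3.03 in WT cells (log2 fold change 0.39, adjusted p = 0.153). The cattle gene FAT1 on this list is a giant cadherin and is unrelated to the fat-1 transgene.

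Catenins and other cadherin anchors gave 3 rises and 1 fall among 11 tested genes, 4 and 2 without FT_1, and 2 and 3 in both filtered limma fits. Beta-catenin (CTNNB1), which joins classical cadherins to alpha-catenin and also acts in Wnt signalling, was the 1 that fell: its FPKM was 90.2, 69.9 and 65.2 in FT_1, FT_2 and FT_3 and 171, 170 and 178 in WT_1, WT_2 and WT_3. Its log2 fold change was -1.05 (SE 0.13, adjusted p = 0.00255). Plakoglobin (JUP), its close relative, moved the other way, from 21.1 ± 0.76 to 38.5 ± 6.85 FPKM (log2 fold change 1.03, adjusted p = 0.00422). ARVCF, of the p120 catenin family, rose by 1.53 (adjusted p = 0.00168). Vinculin (VCL), the most abundant gene of the list, had 217 ± 29.3 FPKM in FT and 191 ± 0.89 in WT cells and did not pass the test (log2 fold change 0.34, adjusted p = 0.0902), but rose by 0.46 without FT_1 (adjusted p = 7.73e-05).

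Nectins and junctional adhesion molecules, immunoglobulin proteins of adherens and tight junctions, gave 4 rises and 0 falls among 10 tested genes (4 and 0 at an unadjusted p under 0.05 in edgeR, and 0 falls in DESeq2 and limma). NECTIN2 rose by 1.64 (adjusted p = 5.23e-04), from 5.97 ± 0.35 to 16.7 ± 1.12 FPKM. NECTIN1 rose by 0.75 (adjusted p = 0.00423) and the poliovirus receptor gene PVR by 0.70 (adjusted p = 0.00273). The scaffold gene TJP1, with the highest level, was at 27.7 ± 2.71 in FT and 27.2 ± 0.74 in WT cells (adjusted p = 0.137). Without FT_1, 5 of 10 rose and 0 fell, with 1 lower at an unadjusted p under 0.05.

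Other immunoglobulin adhesion molecules gave 5 rises and 3 falls among 14 tested genes, and 7 and 4 of 15 without FT_1. These counts include genes at 0 in a whole group, 1 with all libraries and 3 without FT_1. Such genes passed the filter only through the other group, so nothing is concluded from their calls. Among the falls, CADM1 went from 33.9 ± 3.88 to 11.8 ± 1.11 FPKM (log2 fold change -1.36, adjusted p = 0.00104). BCAM, a laminin receptor, had an FPKM of 20.1, 10.5 and 11.1 in FT_1, FT_2 and FT_3 and of 1.18, 1.12 and 0.93 in the WT libraries, a log2 fold change of 3.84 (SE 0.30, adjusted p = 8.27e-04). NEGR1, a lipid-anchored molecule of neurons, rose by 2.87 (adjusted p = 0.00983) but not without WT_1 (2.70, adjusted p = 0.051), and CADM4 rose by 1.65 (adjusted p = 0.00235). Basigin (BSG), the most abundant, rose by 0.72 (adjusted p = 0.00162), from 309 ± 3.91 to 456 ± 8.27 FPKM.

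The transcription factors that repress CDH1 or mark mesenchymal cells did not move together. SNAI2 fell, with an FPKM of 7.73, 22.6 and 26.5 in FT_1, FT_2 and FT_3 and of 111, 116 and 96.8 in WT_1, WT_2 and WT_3 (log2 fold change -2.34, SE 0.46, adjusted p = 0.0104). Its relative SNAI1 rose, with 16.4, 13.0 and 10.9 in the FT libraries and 4.06, 3.67 and 3.55 in the WT libraries (log2 fold change 1.99, SE 0.16, adjusted p = 8.87e-04). In FT_1, where CDH1 was highest, SNAI1 was highest and SNAI2 lowest of all libraries. ZEB1 rose by 0.41 (adjusted p = 0.0352), and this call was lost without FT_2, WT_1, WT_2 or WT_3 (0.35 to 0.44, adjusted p from 0.0771 to 0.124). Its FPKM overlapped between the groups, with 13.33 in FT_3 and 13.36 in WT_1. PRRX1, the most abundant of the list, had 205 ± 61.4 FPKM in FT and 216 ± 17.5 in WT cells (log2 fold change 0.09, adjusted p = 0.798). It rose by 0.32 without FT_1 (adjusted p = 0.00664). With limma and with library totals on all 6 libraries its direction turned. The median of all genes was also negative in those fits, at -0.118 with library totals alone and -0.153 to -0.0282 with limma. In all, 2 of the 9 tested entries (ZEB2 has a pair of them) rose and 1 fell, and 6 and 1 without FT_1. Only 1 rose with library totals alone, in each limma fit and with the replicate block.

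Ligands, partners and modifiers of the 8 proteins gave 2 rises and 0 falls among 11 tested genes, where 1 gene was lower at an unadjusted p under 0.05 in edgeR, 0 fell in DESeq2 and 2, 2 and 1 fell in the 3 limma fits. Without FT_1 the numbers were 2 rises and 5 falls of 12. Nicastrin (NCSTN), a subunit of the gamma-secretase that cuts cadherins within the membrane, rose by 0.74 (adjusted p = 0.00415). The receptor gene FGFR1, whose protein associates with CDH2 and NCAM1, rose by 0.49 (adjusted p = 0.0148), a call lost without FT_2, WT_1 or WT_2 (0.44 to 0.49, adjusted p from 0.0515 to 0.066). Ezrin (EZR), a linker of ICAM1 to actin, had 127 ± 8.68 FPKM in FT and 164 ± 7.23 in WT cells (log2 fold change -0.21, adjusted p = 0.0989) and fell by 0.25 without FT_1 (adjusted p = 0.0103).

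NF-kappaB factors, inhibitors, kinases and related regulators, listed because ICAM1 is a target of NF-kappaB, gave 5 rises and 1 fall among 12 tested genes, and 6 and 4 without FT_1. Without WT_1 there were 3 rises, and the 1 fall, of the kinase gene CHUK, was lost without FT_2, WT_1, WT_2 or WT_3 and with the replicate block. The inhibitor gene TNFAIP3 rose by 1.79 (adjusted p = 0.00789), with 4.93 FPKM in FT_1, 2.33 and 2.36 in FT_2 and FT_3 and 0.92 to 1.09 in WT cells. RELB rose by 1.18 (adjusted p = 0.0211), but not without WT_1, WT_2 or WT_3 (1.12 to 1.20, adjusted p from 0.0746 to 0.0808). NFKBIB rose by 0.96 (adjusted p = 0.0109), but not without WT_1 (0.90, adjusted p = 0.054). RELA, with the highest level of these 12, had 31.1 ± 1.21 FPKM in FT and 21.6 ± 0.77 in WT cells and rose by 0.69 (adjusted p = 0.00137). ICAM1 itself was not among the genes that passed the test in either fit.

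**Figure D5:**
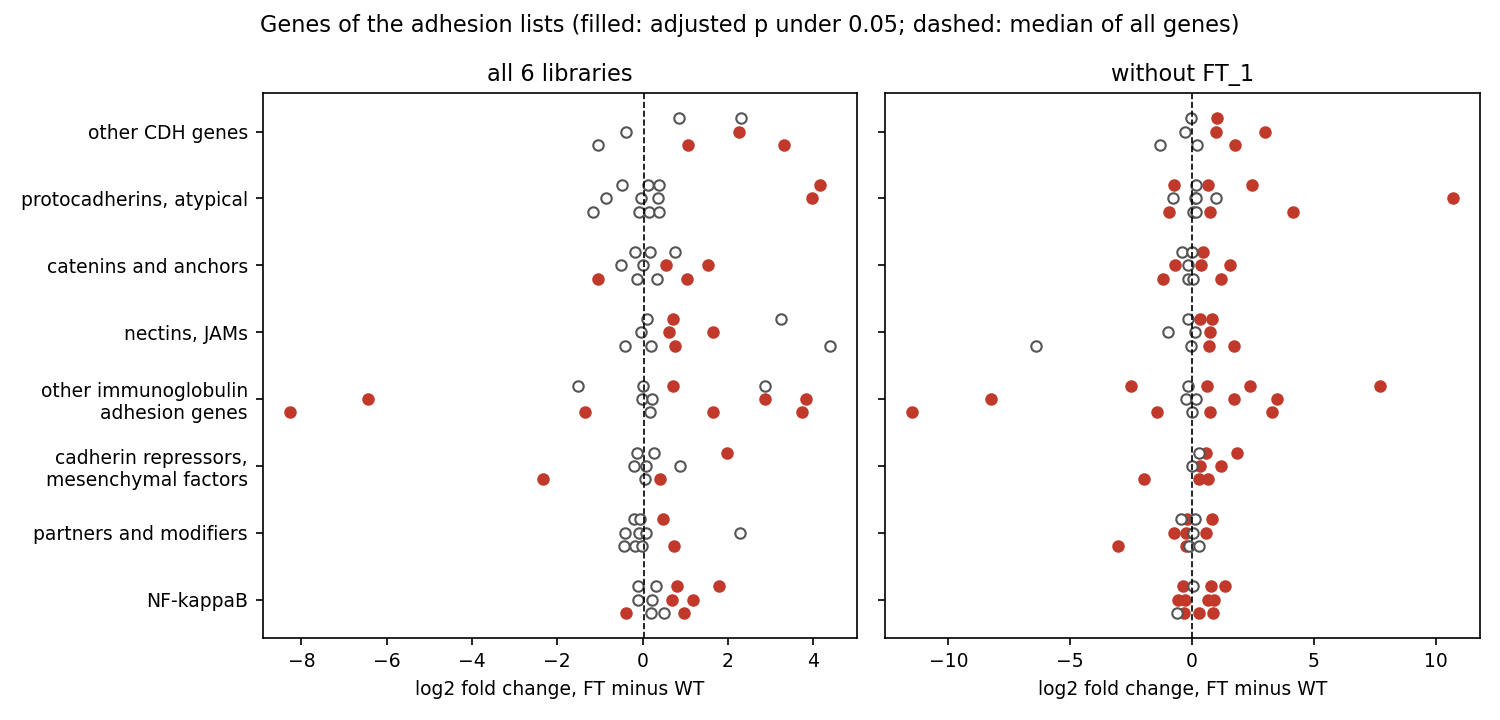
Log2 fold change (FT minus WT, x axis) of the tested genes in 8 lists (y axis), with all 6 libraries on the left and without FT_1 on the right. Filled points have an adjusted p under 0.05 and the dashed line is the median of all tested genes, 0.03 on the left and -0.02 on the right. Nectins and other CDH genes hold no filled point below 0 in either panel, and the NF-kappaB list has 1 fall on the left and 4 on the right.

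Broader sets were read from the annotation columns of the table, without the 8 genes. Of 69 tested genes of the KEGG pathway for cell adhesion molecules, 28 rose and 10 fell, and 38 and 19 of 72 without FT_1, or 55.1% and 79.2% called against 39.0% and 62.1% of all tested genes. The tested genes include 1 (6 without FT_1) at 0 in a whole group, which passed the filter only through the other group. Nothing is concluded from such calls. For the whole set, the numbers of rises and falls were 18 and 6 without WT_1, 21 and 6 without WT_2 and 21 and 5 without WT_3. CD34, a sialomucin of stromal and blood progenitor cells, fell by 5.51 on the log2 scale (adjusted p = 0.00725), from 17.1 ± 1.47 to 0.34 ± 0.34 FPKM. The tight junction gene CLDN1 rose by 5.49 (adjusted p = 0.0416), with 6.35 FPKM in FT_1, 0.56 and 0.32 in FT_2 and FT_3 and 0 to 0.09 in WT cells, and the rise was 3.12 without FT_1 (adjusted p = 0.015). This call was lost without FT_2, WT_1, WT_2 or WT_3 (4.86 to 5.95, adjusted p from 0.0502 to 0.124). JSP, a class I major histocompatibility gene, rose by 4.95 (adjusted p = 7.5e-04), but it belongs to a family of close copies whose reads may have been shared. Its value is therefore uncertain, and so are those of other copies counted among the rises of this set. The integrin gene ITGB1 was the most abundant and rose by 0.60 (adjusted p = 0.00953).

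The GO term for homophilic adhesion gave 14 rises and 6 falls among 54 tested genes, and 25 and 14 of 59 without FT_1, while both filtered limma fits called 10 rises and 1 fall. With 37.0% called (66.1% without FT_1) it lay near all tested genes. Here 1 tested gene (3 without FT_1) was at 0 in a whole group. Besides CDH26 and NECTIN2, NEXN, an actin-binding protein, rose by 1.09 (adjusted p = 0.00953). BSG was again the gene with the highest level. For the GO term adherens junction, 11 of 36 tested genes rose and 4 fell, and 15 and 9 of 37 without FT_1 (41.7% and 64.9% called, also near all genes). Without WT_1 or WT_2 the rises were 5 and 6, and 6 with the replicate block. With library totals alone 9 rose and 7 fell, and the filtered limma fits gave 7 or 8 rises and 7 falls. Rises thus outnumbered falls by less in these fits, or not at all. The share of all calls that were upward was also lower with library totals alone (37.6%) and in the filtered limma fits (34.0% and 34.8%), against 51.6% with TMM. The receptor gene NOTCH1 rose by 2.07 (adjusted p = 5.23e-04), from 3.35 ± 0.18 to 12.6 ± 1.58 FPKM, while the ephrin receptor gene EPHA5 fell by 2.86 (adjusted p = 5.23e-04), from 5.83 ± 0.30 to 0.71 ± 0.07. AJUBA, a LIM protein of junctions, rose by 2.78 (adjusted p = 0.00981), with 45.0 FPKM in FT_1 and 13.6 and 13.0 in FT_2 and FT_3, but not without WT_1 (2.68, adjusted p = 0.0513), and by 1.96 without FT_1 (adjusted p = 6.87e-07).

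For the 3 genes that passed the test with an absolute log2 fold change over 1, the genes of most similar pattern were sought by the root mean square difference of centred log2(FPKM + 1) over the 6 libraries. CDH13 was nearest to ANKRD26 (0.0451), FADS3 (0.0477) and JCAD (0.0503) among 10557 genes. FADS3, of the fatty acid desaturase family, had an FPKM of 69.3, 112 and 118 in FT_1, FT_2 and FT_3 and of 50.9, 51.6 and 54.5 in the WT libraries, the same order of FT_1 below FT_2 and FT_3 as in CDH13. ALCAM was nearest to TMEM94 (0.0249), ARHGAP23 (0.0378) and FAAP100 (0.0395), which all had their highest value in FT_1. CDH6 was nearest to SLC31A1 (0.0327), CD68 (0.036) and CMTR1 (0.057) among 10558 genes. The added 1 compresses the range of a gene as low as CDH6, so genes of higher level with a smaller fold change come out as similar.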

How the data were processed

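The FPKM values and raw counts were deposited by the authors in 1 table, with 1 column of each per library. For expression levels the authors name StringTie and edgeR, with HISAT as the aligner and Perl scripts for merging transcripts. The submitters' processing notes list Bowtie 0.12.2, HISAT2 2.0 and StringTie 1.3.0. How counts were derived, and how close copies of a gene were treated, is not given in the sources used here. The notes name a mouse build for these cattle libraries, so the coordinates carry no build.

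Counts were tested with edgeR 4.0.16 (TMM, filterByExpr, quasi-likelihood) in R 4.3.3, with Benjamini-Hochberg adjustment. Alternatives were DESeq2 1.42.0, limma 3.58.1 on log2(FPKM + 1), other scalings, no filter, a replicate block and leaving out each library. Ratios were tested by exact permutation (SciPy 1.17.1). Libraries of 1 group differed beyond counting noise (mean chi-square per gene 11.7 to 822), so none looks like a copy of another; this does not show that they are independent. Each library is 1 fetus according to the methods, and p-values measure the spread between these cultures.

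The 8 genes and all lists were chosen with earlier results of these data known. Named from each list were up to 3 genes with an adjusted p under 0.05, a mean FPKM of at least 1 and the largest absolute log2 fold change, plus the gene with the highest mean FPKM, also of each marker list. Named outside this rule, after their values were seen, were FAT1, CADM1, CHUK, DSG2, KRT8, KRT14, KRT18, KRT19, ESRP1, ZEB2, CLDN4, LUM, MYF5, MYH3, ACAN, UPK3B, BNC1 and CSPG4. Likeness was searched for called genes with an absolute log2 fold change over 1. One gene of the NF-kappaB list is not reported here. Sex chromosomes and the transgene were not analysed here.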

Additional observations from a re-analysis of the deposited data

How the results depend on the processing

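ALCAM kept its call in all alternatives tried, and CDH13 in all that used the 6 libraries. The 8 genes, the ratios and the counts of calls gave 198 comparisons with an alternative, of which 160 were counted as the same. For this a gene had to keep direction and side of the threshold, and a count to stay within 1.5 times. A ratio had to keep direction and move by less than the SD pooled over both groups, a wide margin for NCAM1 to ALCAM. With the replicate number as a block, CDH2 (-0.36, adjusted p = 0.0665) and CDH6 (-2.19, adjusted p = 0.0621) lost their calls and 0 of the 8 genes fell; same-numbered libraries are different fetuses, and their deviations correlated at 0.00211, -0.0183 and 0.0144, so the numbers do not pair them. CDH4 passed the test with library totals alone (-3.75), DESeq2 (-3.59) and unfiltered limma (-0.63). CDH6 was at -0.845 with limma on log2(FPKM + 1), with and without the filter, and at -1.95 with 0.1 added. NCAM1 was at 1.93 with the replicate block, at 1.03 with limma on log2(FPKM + 1) and at 1.73 with 0.1 added. CDH11 was at -0.0738 with library totals alone and at -0.0901, -0.0904 and -0.0901 in the 3 limma fits.

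Leaving out each library in turn gave -0.40 to -0.30 for CDH2, -4.44 to -2.99 for CDH4, -2.64 to -1.58 for CDH6, 0.00506 to 0.208 for CDH11 and 0.92 to 1.29 for CDH13. The group difference in the log2 ratio of NCAM1 to ALCAM ran from -0.41 (without FT_1) to 2.01. With 1 added to each FPKM and all 6 libraries, this difference was 0.226. From 1 to 3 of the 8 genes rose and from 0 to 3 fell, while over all genes 1516 to 4215 rose and 1531 to 4335 fell, the highest numbers both without FT_1. The study's threshold gave 1378 rises and 1208 falls, and unfiltered limma 1744 rises.

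Of all calls 51.6% were upward with TMM, against 37.6% with library totals alone and 34.0%, 34.8% and 32.5% in the limma fits; the median log2 fold change was 0.03, -0.12 and, with limma at a mean FPKM of at least 0.5 and 1 added, -0.12. Alternatives for the lists were added after the data were seen: 297 of 360 list counts stayed within 1.5 times, and 624 of 675 comparisons of named genes kept direction and call. Reversed were CDH1 (-0.28 to 1.22 over the left-out libraries) and PRRX1 (-0.0936 to 0.323, -0.0671 with library totals alone and -0.12 in the 3 limma fits). Of 38 called list or pattern genes, 9 lost the call without at least 1 library, CD68 and FADS3 among them, and 0 without FT_1. The causes were not tested. Groups of 3 limit what these tests can find, CDH4 and CDH6 rest on few counts, and NCAM1 on FT_1.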
